A study of Mus musculus with 4 samples.

Results

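The conventional myosin heavy chains were taken by their annotated symbols and not by their values: all probe sets paired with exactly 1 of the 10 symbols Myh1, Myh2, Myh3, Myh4, Myh6, Myh7, Myh9, Myh10, Myh11 and Myh14. This gave 20 of the 45101 probe sets on the array, and all 10 genes had at least 1. RNA came from aortas of mice at 6 weeks of age, either with Smad4 deleted in smooth muscle (Smad4-KO) or from wild type littermates (WT). Smad4 is the co-Smad through which TGF-beta and BMP receptors reach their target genes. Each Affymetrix array took 400 ng of RNA pooled from 3 to 5 vessels, and each genotype had 2 arrays, described as biological replicates and numbered 1 and 2. The sources used here do not name the driver that deletes Smad4, the strain or the sex.

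Conventional myosins are the filament-forming motors of muscle and of the contractile cytoskeleton. Each molecule is built on a pair of heavy chains, which carry the ATP-driven motor head and the long coiled tail that packs into filaments, and on light chains that brace and regulate the neck. In the wall of an artery the smooth muscle heavy chain Myh11 drives contraction and is the standard protein marker of differentiated smooth muscle, while the non-muscle chains Myh9, Myh10 and Myh14 serve cell shape, adhesion and movement. Myh10 is also known as SMemb, the chain abundant in embryonic smooth muscle. The cardiac chains Myh6 and Myh7 and the skeletal chains Myh1, Myh2, Myh3 and Myh4 belong to striated muscle.

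The deposited values are probe set signals on a linear scale, scaled so that the trimmed mean of every array is 500. The level of a signal is not comparable between probe sets, so levels were compared across arrays alone. Sums over a marker list and differences of log2 signal between genes within an array serve only to compare arrays. Differences are of log2 signal, Smad4-KO minus WT, and the value after ± is the standard error from limma with 2 arrays a group. A gene was called where its adjusted p in limma lay under 0.05 over the 13645 genes tested, each represented by its brightest probe set. Of all genes tested, 6.31% were called, 1.39% lower and 4.92% higher in Smad4-KO, and the median difference was -0.01. Smad4 itself gave 4394 and 3819 in WT against 2676 and 3580 in Smad4-KO with its brightest probe set, or -0.40 ± 0.32, which missed the threshold (adjusted p = 0.626 in limma). Its dimmest probe set gave 1213 and 1778 in WT against 658 and 942 in Smad4-KO (-0.90), without overlap. Another gave 4306 and 3550 in WT against 2018 and 4166 in Smad4-KO (-0.43), with overlap. Neither passed in limma with every probe set tested by itself. The part of the gene that was deleted is not given, and cells other than smooth muscle keep it. The arrays also differed in labelling: for the Dap spike-in RNA, 3' over 5' signal came to 10.02 and 2.96 on WT replicates 1 and 2 and to 3.62 and 14.1 on Smad4-KO replicates 1 and 2. The defining smooth muscle markers were present on all arrays: the summed signal of 8 of them was 102347 and 119678 in WT against 49780.4 and 63061.8 in Smad4-KO.

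Of the 10 heavy chain genes, 8 were bright enough to be tested in limma, and 1 was called, the cardiac chain Myh6, which was lower in Smad4-KO. Myh6 was bright enough through its WT signals alone. An unadjusted p under 0.05 was reached by 5 of the 8, and by 19.3% of all genes tested. Myh3 and Myh4 fell under the filter on low signal. The Smad4-KO pair lay under the WT pair without overlap for 6 of the 15 heavy chain probe sets tested, where the share over all probe sets tested was 20.1%, and above them for 3 of 15, against 22% over all. With each of the 15 probe sets tested by itself over 26209 probe sets, limma called 0 heavy chain probe sets, in a fit that called 0.782% of all. An unadjusted p under 0.05 was reached by 5 of the 15 and by 14.1% of all. The median difference of the 8 tested genes was -0.61, and it joins chains that lay in opposite directions, as the values by array show.

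**Figure D1:**
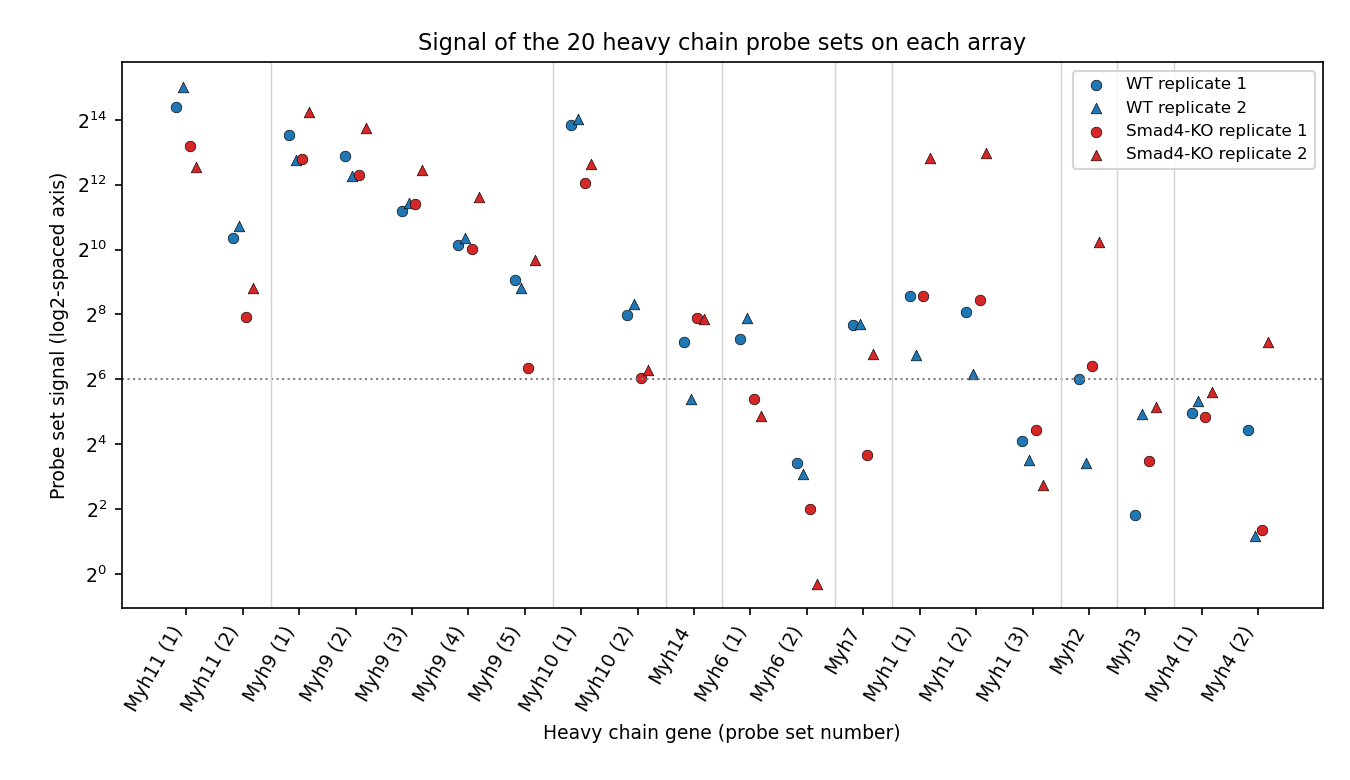
Signal (log2-spaced axis) of each of the 20 heavy chain probe sets on the 4 arrays, WT in blue and Smad4-KO in red, circles for replicate 1 and triangles for replicate 2. Numbers in brackets order the probe sets of a gene by WT signal, and the dotted line marks a signal of 64. Red lies below blue for Myh11 and Myh10, and the red triangle stands high for Myh1 and Myh2.

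The smooth muscle chain was lower in Smad4-KO with both of its probe sets. The brighter Myh11 probe set gave signals of 21398 and 32861 in WT against 9448 and 5960 in Smad4-KO. The dimmer gave 1303 and 1693 in WT against 243 and 447 in Smad4-KO. In both, the Smad4-KO arrays lay below the WT arrays without overlap, although replicate 2 was the lower Smad4-KO array with the bright probe set and replicate 1 with the dim. The bright probe set differed by -1.82 ± 0.40 on the log2 scale, or 3.53-fold (95% interval of the log2 difference -2.82 to -0.82), and missed the threshold (adjusted p = 0.0633 in limma). The dim probe set differed by -2.17 ± 0.44, or 4.51-fold (adjusted p = 0.111 in the limma fit of every probe set). Between the arrays of high 3' to 5' ratio the bright probe set differed by -1.84 and the dim by -1.54. Between those of low ratio the differences were -1.80 and -2.80, so the dim probe set's difference was larger there.

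Myh10, the non-muscle chain known as SMemb, was lower alongside Myh11. Its brighter probe set gave 14723 and 16689 in WT against 4264 and 6435 in Smad4-KO, and its dimmer gave 253 and 320.1 in WT against 66.4 and 78.0 in Smad4-KO. The genotypes did not overlap with either probe set, and the gap between them was wider than the gap between replicates. The bright probe set differed by -1.58 ± 0.34, or 2.99-fold (95% interval -2.44 to -0.72), and like Myh11 missed the threshold (adjusted p = 0.0626 in limma). The dim probe set differed by -1.98 ± 0.35, or 3.95-fold (adjusted p = 0.0841 in the fit of every probe set). Within pairs of arrays of like labelling ratio the bright probe set differed by -1.19 (high ratio) and -1.97 (low ratio).

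Beside these lower signals, the cell type markers of the same arrays differed as follows. Of 8 smooth muscle markers tested, 4 fell, against 1.39% of all genes tested. All 8 lay lower in both Smad4-KO arrays (median -1.92), against 20.1% of all probe sets tested. The 4 were Cnn1, an actin-binding protein (-2.58 ± 0.29), Lmod1, an actin nucleator (-2.55 ± 0.35), Smtn, a cytoskeletal protein of contractile smooth muscle (-2.34 ± 0.29), and Actg2, the gamma smooth muscle actin (-1.51 ± 0.29). Of 9 macrophage markers, 5 rose, where 4.92% of all genes tested were called higher. The summed signal of the 9 was 9863 to 15400 in WT and 57272 to 73601 in Smad4-KO. All 7 nerve cell markers tested rose, with sums of 1508 to 1657 in WT and 20574 to 28851 in Smad4-KO. Of 6 endothelial markers 0 passed in limma, with 1 at an unadjusted p under 0.05, against 19.3% of all genes tested (sums 8810.4 to 9369 in WT, 5108 to 9905 in Smad4-KO). It called 0 of 6 fibroblast markers, with 0 at an unadjusted p under 0.05 (84323 to 86270.2 and 73985 to 104456), and 0 of 5 fat markers, with 1 at an unadjusted p under 0.05 (30921.6 to 75378 and 30358.6 to 60709). Over all genes tested 6.31% were called, and 0 calls in lists of 5 or 6 genes cannot be told from that share. In RNA from a whole vessel, fewer cells of a type and less RNA per cell cannot be told apart. The part of these other cells in the heavy chain differences was not tested.

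Myh9, the non-muscle chain of most cells outside muscle, was measured by 5 probe sets, and the genotypes overlapped with all of them. Its brightest gave 11964 and 6923 in WT against 7046 and 19289.7 in Smad4-KO. The next gave 7567 and 4907 in WT against 5084 and 13741 in Smad4-KO. With both, WT replicate 2 and Smad4-KO replicate 1 read nearly alike, and WT replicate 1 and Smad4-KO replicate 2 were the higher array of their genotype. These are also the arrays of high 3' to 5' labelling ratio. The third probe set gave 2321 and 2762 in WT against 2723 and 5648 in Smad4-KO, and the fourth 1118 and 1315 in WT against 1037 and 3153 in Smad4-KO. With these dimmer probe sets Smad4-KO replicate 2 alone stood high, at 2.04 and 2.40 times the highest of the other arrays. The dimmest gave 536 and 455 in WT against 81.2 and 822 in Smad4-KO, so the Smad4-KO replicates lay on either side of WT, 10.1-fold apart.

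The brightest Myh9 probe set differed by 0.36 ± 0.58 (95% interval -1.09 to 1.80, adjusted p = 0.847 in limma). Its difference was 0.69 between the arrays of high labelling ratio and 0.03 between those of low ratio. It turned to -0.37 without Smad4-KO replicate 2 and to -0.04 without WT replicate 2. The first 4 probe sets lay between 0.36 and 0.63 and the dimmest at -0.93, none past the threshold.

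**Figure D2:**
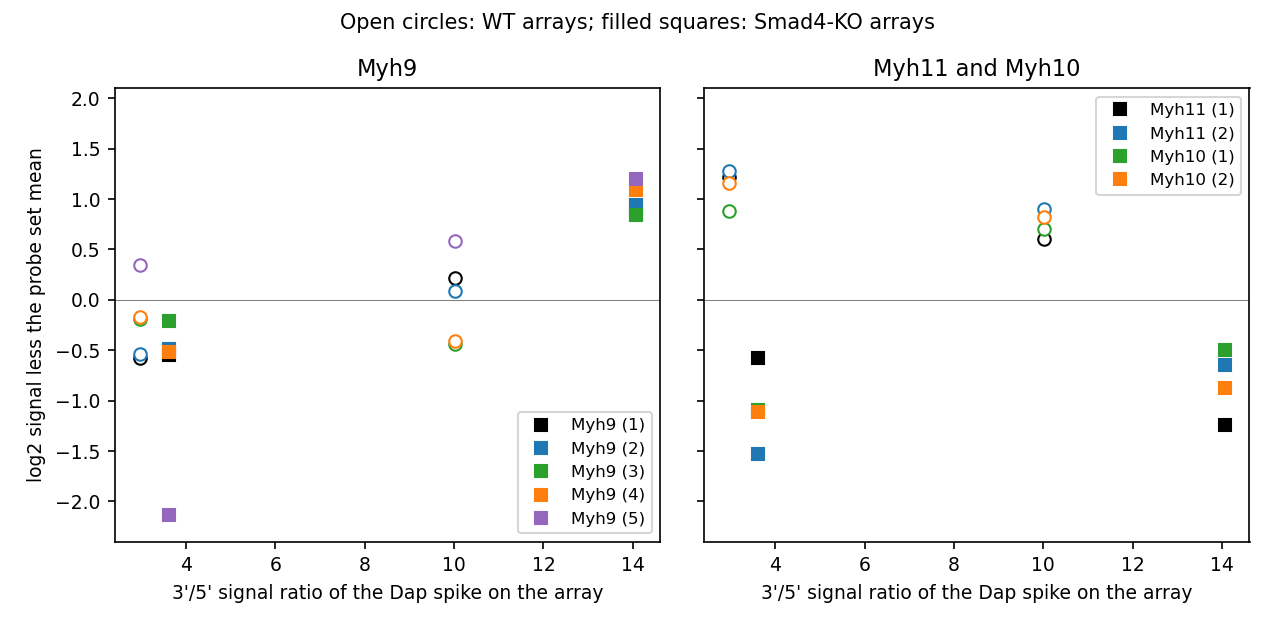
Log2 signal of each probe set less its mean over the 4 arrays, against the 3' to 5' signal ratio of the Dap spike on the array, for Myh9 (left) and for Myh11 and Myh10 (right); open circles are WT arrays and filled squares Smad4-KO arrays. The brightest Myh9 probe sets are higher on both arrays of high ratio, while Myh11 and Myh10 separate by genotype at either ratio.

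Myh14, the third non-muscle chain, had 1 probe set, with signals of 142 and 41.6 in WT against 239 and 232 in Smad4-KO. The Smad4-KO signals were close together and above WT, and the spread was in WT, where replicate 2 lay under 64. The difference of 1.61 ± 0.61, or 3.06-fold (95% interval 0.09 to 3.14), did not pass (adjusted p = 0.231 in limma). With signals under 64 raised to 64 the difference was 1.30 (adjusted p = 0.186). It was 2.50 without WT replicate 1 (adjusted p = 0.0709) and 0.73 without WT replicate 2 (adjusted p = 0.631).

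The smooth muscle chain was also set against each non-muscle chain within an array, which shows whether they differed unequally. Myh11 less Myh10 was 0.54 and 0.98 in WT against 1.15 and -0.11 in Smad4-KO on the log2 scale, so the genotypes overlapped (change -0.24, two-sided exact permutation p = 1), and the change turned to 0.39 without Smad4-KO replicate 2. Myh11 less Myh9 was 0.84 and 2.25 in WT against 0.42 and -1.69 in Smad4-KO, a change of -2.18 with no overlap (exact permutation p = 0.333). It ranged from -1.12 without Smad4-KO replicate 2 to -3.24 without Smad4-KO replicate 1, and was -1.47 without WT replicate 2. Myh11 less Myh14 changed by -3.43, or by -3.12 with signals under 64 raised to 64, again with no overlap (exact permutation p = 0.333). It was -2.24 without WT replicate 2. With 2 arrays against 2, the smallest p this test can give is 0.333. The 3 tests share Myh11, so they are not separate evidence.

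**Figure D3:**
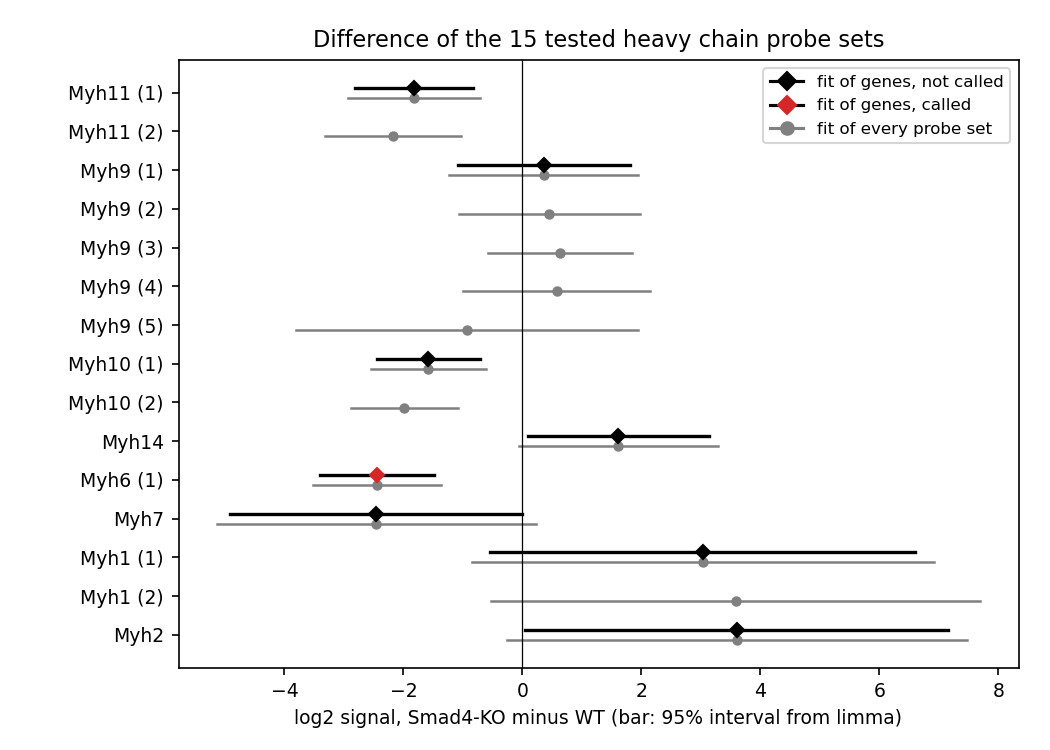
Difference in log2 signal, Smad4-KO minus WT, of the 15 heavy chain probe sets tested, with 95% intervals from limma; black diamonds are from the fit of 1 probe set a gene (red where called), grey circles from the fit of every probe set. Intervals of Myh11 and Myh10 lie below 0, those of all Myh9 probe sets cross 0, and those of Myh1 and Myh2 are the widest.

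The promoter of Myh10 is shown because that chain was lower in Smad4-KO with both probe sets. The 300 bases run from 250 before to 50 after the RefSeq start site (GRCm38.p6, chr11:68691665-68691964, plus strand), and capitals mark the letters CAGAC on either strand, a short sequence that Smad proteins are known to bind. RefSeq promoters matched 9 of the 10 symbols, all except Myh11.
Myh10: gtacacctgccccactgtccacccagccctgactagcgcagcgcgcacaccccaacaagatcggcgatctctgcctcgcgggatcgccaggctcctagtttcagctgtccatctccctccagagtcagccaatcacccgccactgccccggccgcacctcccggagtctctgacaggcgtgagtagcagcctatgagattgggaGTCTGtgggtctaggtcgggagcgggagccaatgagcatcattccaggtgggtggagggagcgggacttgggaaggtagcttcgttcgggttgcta
The window holds 1 match, as do 49.6% of all 32851 promoter windows of this length with at least 1, so the match is common. A CArG box, the sequence bound by serum response factor, was found in 0 places in this window and in 1.63% of all windows.

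The cardiac chains were dim and lower in Smad4-KO. Myh6, the alpha cardiac chain of the atria and of the adult mouse heart, gave 153 and 239.8 in WT against 42.3 and 29.3 in Smad4-KO with its brighter probe set. The genotypes did not overlap, and both Smad4-KO signals lay under 64. Both also lay under the filter on low signal, which Myh6 passed through its WT signals alone. The difference of -2.44 ± 0.38 passed the test (95% interval -3.41 to -1.48, adjusted p = 0.0282 in limma). With signals under 64 raised to 64, Myh6 was at least 2.99-fold lower, and the call was lost (adjusted p = 0.0580). The call was also lost without WT replicate 1 (adjusted p = 0.0706), without WT replicate 2 (adjusted p = 0.152), without Smad4-KO replicate 2 (adjusted p = 0.0579), with no filter on low signal (adjusted p = 0.103) and with a block for arrays of like labelling ratio (adjusted p = 0.0559). The dimmer Myh6 probe set gave 10.8 and 8.56 in WT against 4.0003 and 0.816 in Smad4-KO, too low to be tested.

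Myh7, the beta cardiac chain shared with slow skeletal fibres, gave 204 and 208 in WT against 12.7 and 109.8 in Smad4-KO. The Smad4-KO replicates were both lower than WT, and replicate 1 lay under 64. Their mean log2 signal lay under the filter on low signal, which Myh7 passed through WT. The difference of -2.46 ± 0.98 (95% interval -4.92 to 0.00) did not pass (adjusted p = 0.259 in limma), and it ranged from -0.91 without Smad4-KO replicate 1 to -4.01 without replicate 2, where it passed (adjusted p = 0.0113). With signals under 64 raised to 64 the difference was -1.29, or 2.45-fold, and did not pass (adjusted p = 0.116 in limma). A pair of probe sets annotated to Myh6 and Myh7 together were not counted as members. The brighter of them gave 80.8 and 173 in WT against 8.85 and 27.4 in Smad4-KO, and the other 25.2 and 25.8 in WT against 16.4 and 15.2 in Smad4-KO, in both cases lower in Smad4-KO without overlap.

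Of 8 heart muscle markers tested, 0 passed in limma, with 2 at an unadjusted p under 0.05 (median -0.71), against 19.3% of all genes tested. Of the 10 measured, 8 lay lower in both Smad4-KO arrays, against 20.1% of all probe sets tested. These 8 include Nppb, which differed by only -0.07, and Nppa and Myl7, which were too dim to be tested. The summed signal of the 10 was 2268.5 to 2639 in WT and 1573 to 1783 in Smad4-KO. Actc1, the cardiac actin, differed by -0.94 ± 0.29 (adjusted p = 0.147) and Mybpc3, a cardiac thick filament protein, by -1.03 ± 0.32 (adjusted p = 0.154). Of the defining atrial markers, Nppa, the atrial natriuretic peptide, stayed under 64 on all arrays (45.8 and 43.9 in WT, 33.3 and 30.8 in Smad4-KO). Myl7, the atrial regulatory light chain, read 174 on WT replicate 2 and 3.47 to 9.54 on the other arrays. Myl4, the atrial essential light chain, was above 64 on all arrays, at 332 and 436 in WT against 188 and 293 in Smad4-KO. It was lower without overlap (-0.70 ± 0.37) but did not pass (adjusted p = 0.411 in limma). The part of heart tissue in the Myh6 and Myh7 signals was not tested.

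The fast skeletal chains stood high on 1 array, Smad4-KO replicate 2. Myh1, the chain of fast type 2X fibres, gave 382 and 107 in WT against 379.6 and 7191 in Smad4-KO with its brightest probe set. Its next probe set gave 267 and 72.4 in WT against 347 and 8031 in Smad4-KO. Smad4-KO replicate 2 stood 18.8-fold and 23.2-fold above the highest of the other arrays, while with the brightest probe set Smad4-KO replicate 1 lay within the WT values. The last Myh1 probe set stayed under 64 throughout, at 17.3 and 11.5 in WT against 21.9 and 6.70 in Smad4-KO, and did not show this pattern. Myh2, the chain of fast type 2A fibres, gave 64.7 and 10.8 in WT against 85.6 and 1200.1 in Smad4-KO, 14.01-fold above the highest of the other arrays.

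Neither gene passed the test: Myh1 differed by 3.03 ± 1.43 (adjusted p = 0.346) and Myh2 by 3.60 ± 1.42 (adjusted p = 0.254 in limma). Without Smad4-KO replicate 2 the differences were 0.91 (adjusted p = 0.63) and 1.70 (adjusted p = 0.474). Without replicate 1 they were 5.15 (adjusted p = 0.0292) and 5.51 (adjusted p = 0.0466), so the value rests on that array. Myh2 passed the filter on low signal through the same array, and with signals under 64 raised to 64 its difference was 2.32 (adjusted p = 0.400).

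Myh4, the chain of fast type 2B fibres, stayed under 64 with its brighter probe set, at 31.4 and 40.5 in WT against 28.7 and 49.0 in Smad4-KO. Its other probe set gave 21.6 and 2.26 in WT against 2.55 and 142 in Smad4-KO, again highest on Smad4-KO replicate 2. Myh3, the embryonic chain, lay under 64 on all arrays, at 3.53 and 30.7 in WT against 11.2 and 35.5 in Smad4-KO. Of the 7 skeletal chain probe sets, 6 were highest on Smad4-KO replicate 2. The share over all probe sets tested was 24.3%, but only 3 of these 7 were tested. Of the 7, 3 stayed under 64 on all arrays, and the second Myh4 probe set reached 64 on Smad4-KO replicate 2 alone. Myh1, Myh2 and Myh4 are close copies, and the probe sequences were not used here, so signal may be shared among them.

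**Figure D4:**
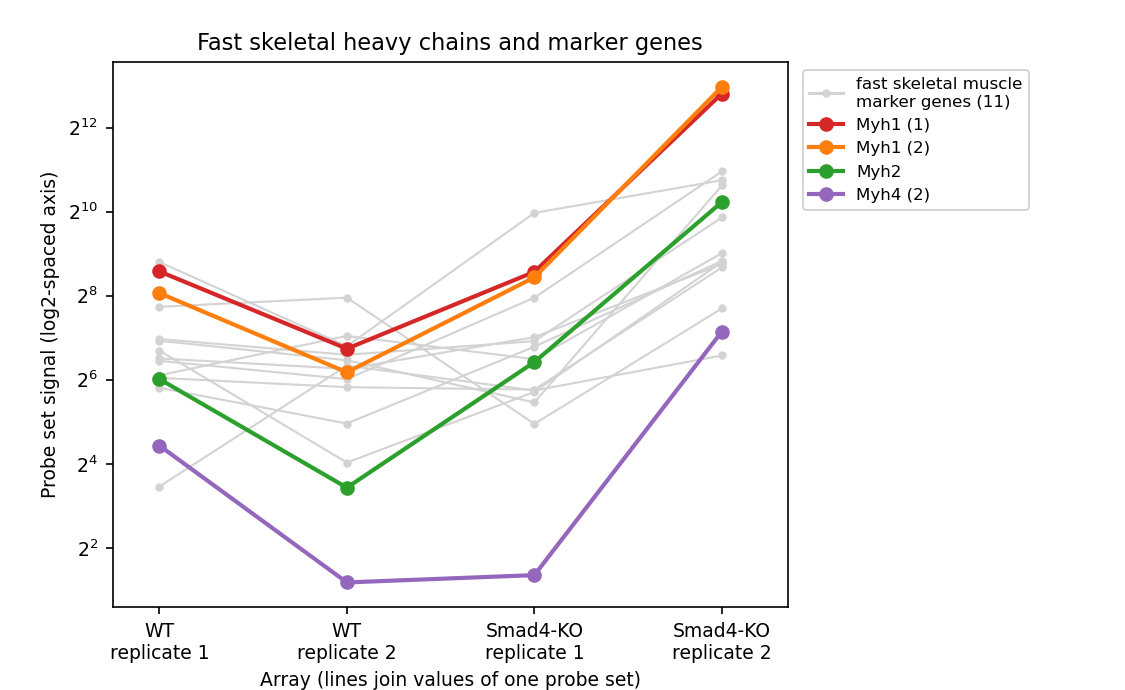
Signal (log2-spaced axis) on the 4 arrays of the fast skeletal heavy chain probe sets (coloured) and of the 11 fast skeletal muscle marker genes (grey). Myh1, Myh2 and the second Myh4 probe set stand highest on Smad4-KO replicate 2, as do 10 of the 11 markers.

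Fast skeletal markers stood high on the same array: 10 of 11 had their highest signal on Smad4-KO replicate 2, against 24.3% of all probe sets tested. The summed signal of the 11 was 8778 there, against 1937 on Smad4-KO replicate 1 and 1002 to 1390.4 in WT. Acta1, the skeletal actin, gave 87.4 and 64.7 in WT against 248 and 1989 in Smad4-KO. Ckm, the muscle creatine kinase, gave 68.9 and 132 in WT against 89.8 and 516 in Smad4-KO. Of the 10 tested, 0 passed in limma and 3 reached an unadjusted p under 0.05, against 6.31% and 19.3% of all genes tested. Myl1, a fast essential light chain, had the lowest p of the list (2.56 ± 0.71, adjusted p = 0.116). Slow skeletal markers reached a sum of 937 on Smad4-KO replicate 2, against 521 to 572 on the other 3. Limma called 0 of the 4 tested, with 1 at an unadjusted p under 0.05, against the same shares of all genes. This was Myl3, a slow essential light chain (1.80 ± 0.64, adjusted p = 0.209). Its WT signals of 52.9 and 14.3 lay under 64, and its difference was 0.58 with signals under 64 raised to 64. The part of skeletal muscle in these signals was not tested.

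The promoters of the fast chains are shown because Myh1, Myh2 and the second Myh4 probe set were highest on the same array. In the RefSeq annotation Myh3, Myh2, Myh1, Myh4, Myh8 and Myh13 follow each other on chromosome 11 with no other protein-coding gene between them. Each window runs from 250 bases before to 50 after the start site on the plus strand of GRCm38.p6, at chr11:67199852-67200151 for Myh1, chr11:67170777-67171076 for Myh2 and chr11:67237562-67237861 for Myh4. Capitals mark the run of at least 12 bases that all 3 windows hold.
Myh1: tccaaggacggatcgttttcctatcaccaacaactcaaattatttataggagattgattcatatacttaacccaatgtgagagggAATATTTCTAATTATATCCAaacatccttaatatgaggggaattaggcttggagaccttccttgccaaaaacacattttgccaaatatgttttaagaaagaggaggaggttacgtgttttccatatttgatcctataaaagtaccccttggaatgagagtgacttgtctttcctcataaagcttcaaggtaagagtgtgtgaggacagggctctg
Myh2: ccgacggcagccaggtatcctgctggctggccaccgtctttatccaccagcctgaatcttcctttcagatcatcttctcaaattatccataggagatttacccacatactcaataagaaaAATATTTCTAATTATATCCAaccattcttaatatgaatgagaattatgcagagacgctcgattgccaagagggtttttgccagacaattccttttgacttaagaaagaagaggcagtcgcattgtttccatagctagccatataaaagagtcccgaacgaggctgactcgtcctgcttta
Myh4: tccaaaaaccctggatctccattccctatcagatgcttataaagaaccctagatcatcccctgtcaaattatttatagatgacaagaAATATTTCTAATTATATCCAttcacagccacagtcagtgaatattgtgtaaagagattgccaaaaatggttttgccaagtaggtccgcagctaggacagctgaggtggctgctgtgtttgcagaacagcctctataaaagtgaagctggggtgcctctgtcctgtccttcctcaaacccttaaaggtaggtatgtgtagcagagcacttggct
The shared run is 20 bases long and starts at base -165 from the start site in Myh1, -130 in Myh2 and -163 in Myh4. It occurs on either strand in 3 of the 32851 windows, those of these genes alone. The letters TATAAA are present in all 3 windows and in 13.6% of all windows.

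Myh7b and Myh8, further sarcomeric heavy chains, were dim. Myh7b gave 69.0 and 79.8 in WT against 45.5 and 40.0 in Smad4-KO, or -0.80 ± 0.30, which missed the threshold (adjusted p = 0.231 in limma). Both Smad4-KO signals lay under the filter on low signal, which Myh7b passed through WT. Myh8, the perinatal chain, lay under 64 on all arrays, at 32.1 and 43.9 in WT against 2.11 and 32.2 in Smad4-KO, and was not tested. Myh13 and Myh15 had no probe set annotated to them alone.

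Genes that act on the heavy chains were counted beside them. Of 12 tested kinases, phosphatase subunits and other controls of light chain phosphorylation, 4 fell and 0 rose (median -1.44), against 1.39% and 4.92% of all genes tested. The 4 were Mylk4 (-3.64 ± 0.31), Ppp1r14a, an inhibitor of myosin phosphatase (-2.50 ± 0.39), Ppp1r12b, a targeting subunit of that phosphatase (-2.42 ± 0.33), and Mylk, the smooth muscle light chain kinase (-1.71 ± 0.30). The last gave 17161 and 16788 in WT against 5627 and 4795 in Smad4-KO. Of 9 light chains tested, 0 passed in limma and 4 reached an unadjusted p under 0.05, against 6.31% and 19.3% of all genes tested. The 4 lay in opposite directions: Myl9 and Myl6 were lower, while the striated muscle chains Myl1 (2.56) and Myl3 (1.80) were higher. The lowest p values were those of Myl9, the regulatory light chain of smooth muscle (-1.74 ± 0.35, adjusted p = 0.0526), and Myl6, its essential light chain (-1.47 ± 0.33, adjusted p = 0.0663).

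Of 11 tested chaperones and thick filament assembly proteins 1 fell, against 1.39% of all genes tested. This was Myom1, a protein that links thick filaments at the M-band of sarcomeres (-2.21 ± 0.38, adjusted p = 0.0342 in limma). It gave 8959 and 14682 in WT against 2816 and 2174 in Smad4-KO. Of 13 transcription factors known to act on Myh11, 0 passed in limma (median -0.62), against 6.31% of all genes tested. An unadjusted p under 0.05 was reached by 5 of the 13, against 19.3% of all genes tested. Myocd had the largest difference, -2.42 ± 0.91 (adjusted p = 0.230). It gave 1432 and 2755 in WT against 146 and 942 in Smad4-KO. Srf, the serum response factor (-1.16 ± 0.31, adjusted p = 0.103), and Zeb1 (-0.89 ± 0.30, adjusted p = 0.182) had the lowest p values. All of these lists were chosen with earlier results of these arrays known, so their counts are a description.

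The tested genes whose pattern over the 4 arrays was most like that of Myh11 were B3galnt2, Gucy1b1, St3gal2, Map3k20 and Chsy3. Likeness was the Euclidean distance between log2 values centred on each gene's mean, which ran from 0.0730 to 0.164 for these 5. Gucy1b1, the beta subunit of soluble guanylate cyclase, gave 4792 and 7457 in WT against 2337 and 1459 in Smad4-KO. The 5 were picked for likeness to Myh11 on these arrays, so their lower Smad4-KO signals follow from that choice. Of the 5, Chsy3, a chondroitin synthase, was called lower (-1.90, adjusted p = 0.0438 in limma), as were 1.39% of all genes tested. Both of its Smad4-KO signals, 43.7 and 31.1, lay under 64, so it was at least 2.15-fold lower. Both also lay under the filter on low signal, which Chsy3 passed through WT. The genes nearest to Myh10 were Zyx, Klc3, Pi15, Adamtsl5 and Dlk2, at distances of 0.0788 to 0.158. Zyx, a focal adhesion protein, gave 4277 and 4706 in WT against 1219 and 1951 in Smad4-KO. With 4 arrays these distances describe these libraries alone.

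The log2 differences of the 8 tested genes were recomputed under other processing. Myh11 ranged from -2.15 to -1.49 and Myh10 from -1.88 to -1.28 over 15 alternatives, and they passed under 5 and 3 of these. Myh6 ranged from -2.77 to -1.58 over 13 alternatives and passed under 7. Myh14 passed under 0 of 14 (adjusted p from 0.0709 to 0.631) and Myh9 under 0 of 15 (adjusted p from 0.312 to 0.994), with 2 in which the sign of Myh9 turned.

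**Figure D5:**
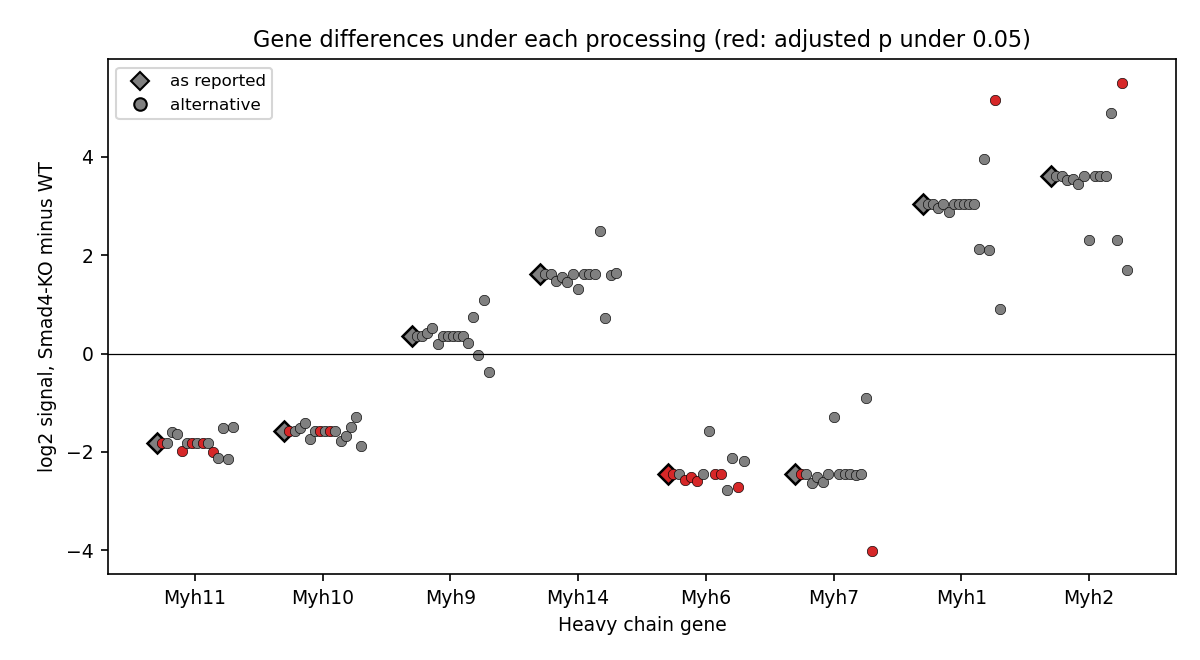
Difference in log2 signal, Smad4-KO minus WT, of each tested heavy chain gene as reported (diamonds) and under each alternative (circles), red where the adjusted p in limma lay under 0.05. Myh11 and Myh10 stay between -2.15 and -1.28, while Myh1 and Myh2 spread from 0.91 to 5.51.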

How the data were processed

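RNA of 4 aorta pools was measured on Affymetrix arrays. The authors deposited 1 linear intensity for each probe set and array. Expression Console (Affymetrix) and RMA are named in the submitters' processing notes without versions. The values lack the form of RMA: they are linear, and the mean after trimming 2% at each end is 500 on every array, as in MAS5 scaling. Neither detection calls nor a genome build is stated in the labels.

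Of 45101 probe sets, 64 are controls, and 34945 of the rest are paired with 1 symbol, 932 with several and 9160 with none. Only those with 1 symbol were tested. Log2 was taken of all values. Each gene stood for its probe set of highest mean, and genes below the 25th percentile of that mean (5.64) were left out, which left 13645. A second fit took each probe set by itself, with a filter at 5.25 that left 26209. Both used limma 3.58.1 (R 4.3.3), lmFit and eBayes with genotype as the only term, two-sided, with Benjamini-Hochberg adjustment over all features tested. Differences within an array were compared by an exact permutation test. The fits were tested on simulated data with known changes, where many changes of the size seen for Myh11 were missed, more often in the fit of every probe set. A fold written "at least" raises signals under 64 to 64 and carries no error of its own. Precision is limited by having 2 arrays a genotype.

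The heavy chains, the gene lists and the tests were chosen with earlier results of these data known. The text names all 10 heavy chains and their probe sets, further heavy chains, Smad4, Acta1, Ckm, Myl7, Nppa, up to 4 called members of each list (or, where none was called, those of lowest p) and the 5 genes nearest to Myh11 and to Myh10. Myl4, Nppb and Myocd are named as well. Named members of the macrophage, nerve cell, endothelial, fibroblast and fat lists are left out of the text for space. The alternatives were other normalizations, filters, variance models and blocks, a floor of 64, averaging the probe sets of each gene, an adjusted p of 0.10, and leaving out each array. Motif searches and figures used Python 3.11.15, pandas 2.3.3 and matplotlib 3.10.9.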

Additional observations from a re-analysis of the deposited data

How the results depend on the processing

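The number of heavy chain genes called, 1 as reported, was 4 with the replicate block, 0 with a block for arrays of like labelling ratio, 2 with arrays centred on the median, 0 with no filter on low signal, 2 with a filter at the 50th percentile, 0 with signals under 64 raised to 64, 3 with eBayes trend and robust, 3 at an adjusted p of 0.10, and 0 to 3 when each array was left out in turn. The count of heavy chain probe sets called, 0 as reported in limma (5 at an unadjusted p under 0.05), became 2 at an adjusted p of 0.10 and was 0 to 0 when arrays were left out. Over all genes, 861 calls became 1321 with the replicate block, 0 with the labelling block (2658 at an unadjusted p under 0.05), 0 with no filter (2788 at an unadjusted p under 0.05), 1403 at an adjusted p of 0.10, 518 with the mean of probe sets, and 0 to 808 when arrays were left out. These calls were among 13645 genes tested, or 18193 with no filter. Of 13645 genes, 762 were called with arrays centred on the median, 1004 with eBayes trend and robust, and 936 with signals under 64 raised to 64. With the filter at the 50th percentile 704 of 9097 were called. The heavy chain genes called were not the same throughout. With the filter at the 50th percentile they were Myh11 and Myh10, and with the mean of probe sets Myh11 alone. In both of these settings Myh6 fell under the filter and was not tested. The cause of these shifts was not tested.

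Limma made 0 calls without WT replicate 2, where 1791 genes had an unadjusted p under 0.05, and 270 without WT replicate 1. The lone array left in a genotype is then assumed to vary like the other group. The deviations of same-numbered arrays correlated at -0.01 over genes, and those of arrays with unlike numbers at 0.01. With 2 arrays a genotype these values mirror each other, so they cannot decide whether the replicate numbers pair the arrays. With the replicate block Myh11 (adjusted p = 0.0355), Myh10 (adjusted p = 0.0434), Myh6 (adjusted p = 0.00809) and Myh7 (adjusted p = 0.0392) passed. Centring arrays on the median moved the median of all genes to -0.16, and Myh11 was then at -1.98.

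With arrays left out in turn, the brightest Myh9 probe set ran from -0.37 to 1.08, its direction turning without Smad4-KO replicate 2 and without WT replicate 2 (-0.04). The second ran from -0.26 to 1.17 and the next but dimmest from -0.23 to 1.38, both turning without Smad4-KO replicate 2. The dimmest ran from -2.60 to 0.74, turning without Smad4-KO replicate 1. Leaving out arrays was added for the within-array differences after seeing the data: Myh11 less Myh10 ran from -0.87 to 0.39, turning without Smad4-KO replicate 2, while Myh11 less Myh9 (-3.24 to -1.12) and Myh11 less Myh14 (-4.63 to -2.24) kept their direction. Signals under 64 limit Myh3, Myh4, Myh6 and part of Myh1, Myh2, Myh7 and Myh14.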
